A study of Mus musculus with 15 samples.

Results

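Caspases, gasdermin and death receptors are followed here through 9 genes, CASP1, CASP4, CASP8, GSDMD, MLKL, RIPK3, FAS, TNFSF10 and AIM2, taken from the expression table by symbol. All 9 were found among the 24891 genes of that table, which lists the mouse genes by symbols in capitals. RNA was sequenced from tumors of 105K cells, a Tsc2-deficient line derived from a kidney tumor of a Tsc2+/- animal, grown under the skin of wild-type C57BL/6J mice, and the study asked what loss of B7-H3, an immune checkpoint protein encoded by Cd276, does to these tumors. There were 15 libraries, 3 in each of 5 groups. In whole tumors, called bulk, a non-targeting hairpin (sh-NC) was set against sh-B7-H3 (1). In sorted tumor cells the same hairpins were used and also a further one, sh-B7-H3 (2), which targets a separate region of Cd276. Every group thus shares the loss of Tsc2 and a puromycin-selected hairpin, and per the methods the cells were mixed pools and not single clones, injected in Matrigel into male hosts of 6 weeks. Sorted cells were the unlabelled cells left after dissociated tumors had been depleted of non-tumor cells on magnetic beads. The labels do not tie libraries to animals, so p-values measure the spread between these libraries.

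Death receptors and caspases run the main routes of programmed cell death. TNFSF10 (TRAIL) and the ligand of FAS gather CASP8 at their receptors, and CASP8 starts apoptosis. Where CASP8 is not active, RIPK3 phosphorylates MLKL, which opens the plasma membrane in necroptosis, while AIM2, a sensor of cytosolic DNA, activates CASP1, and CASP1 or CASP4 (the mouse caspase also called caspase-11) cuts GSDMD into the pore of pyroptosis. Several of these genes are known targets of interferons, which act in part through the IRF factors.

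The start regions of 3 of the genes are shown because interferon factors bind short motifs near start sites. TNFSF10 and RIPK3 differed most between the groups, and FAS was the only gene of the 8 with a promoter window that matched the GAS motif, the interferon-γ activated sequence. The sequences are from RefSeq (GRCm38.p6, the build that mm10 also names), read 5′ to 3′ on the gene's strand, and capitals mark motif matches. They lie at chr3:27316827-27317057 (plus strand) for TNFSF10, chr14:55788858-55789107 (minus strand) for RIPK3 and chr19:34290409-34290658 (plus strand) for FAS.
TNFSF10: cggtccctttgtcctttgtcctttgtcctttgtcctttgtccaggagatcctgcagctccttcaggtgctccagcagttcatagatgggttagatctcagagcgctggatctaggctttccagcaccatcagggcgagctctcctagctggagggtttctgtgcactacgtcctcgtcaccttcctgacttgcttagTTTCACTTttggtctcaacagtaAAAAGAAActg
RIPK3: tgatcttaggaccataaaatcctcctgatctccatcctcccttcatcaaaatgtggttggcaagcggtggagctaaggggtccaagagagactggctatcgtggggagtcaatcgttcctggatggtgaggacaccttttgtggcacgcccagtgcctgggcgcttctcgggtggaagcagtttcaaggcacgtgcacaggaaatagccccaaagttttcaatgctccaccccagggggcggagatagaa
FAS: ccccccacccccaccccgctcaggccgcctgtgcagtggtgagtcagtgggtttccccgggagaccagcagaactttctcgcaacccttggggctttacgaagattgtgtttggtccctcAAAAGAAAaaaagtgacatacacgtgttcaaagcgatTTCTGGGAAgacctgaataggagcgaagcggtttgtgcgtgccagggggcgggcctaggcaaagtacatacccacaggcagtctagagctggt
Windows of 300 bases around the RefSeq start sites were given for 8 of the 9 genes, as 9 windows since CASP4 has 2. The GAS motif, TTCNNNGAA (the same letters on either strand), matched once, in FAS, 93 bases before the start site. It was in 8.3% of the 32851 promoter windows of all genes. The core of the IRF motif, AANNGAAA or TTTCNNTT on the other strand, was in 23.9% of all windows and in those of 4 of the 8 genes. TNFSF10 held it 53 and 30 bases before the RefSeq start site, FAS 130 bases before it and once in the transcribed part, and CASP4 and CASP8 held it in pairs. The GENCODE start of TNFSF10 is 49 bases upstream of the RefSeq one, so by that annotation its second match lies within the gene. The windows of CASP8 and AIM2 also lie within the GENCODE gene spans given below. CASP1, AIM2, RIPK3 and MLKL held neither motif in these windows. The motifs were chosen after the expression values had been seen, and a match is a description of letters.

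The 9 genes lie on 7 chromosomes of GRCm38 (GENCODE vM21), and none has exons that overlap those of another gene. CASP1 (chr9:5298517-5307265) and CASP4 (chr9:5308828-5336783) are neighbors on the plus strand of chromosome 9. CASP8 (chr1:58795374-58847503) and AIM2 (chr1:173350879-173466040) are on chromosome 1, GSDMD is at chr15:75862327-75867408, RIPK3 at chr14:55784995-55788865, MLKL at chr8:111311797-111338177, FAS at chr19:34290666-34327772 and TNFSF10 at chr3:27317028-27342427.

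Levels are scaled FPKM, the deposited fragment counts per length and depth after division by a factor for each library, so that levels of different genes can be set side by side. Total reads are unknown, the depth of the libraries spanned 0.468 to 1 relative to the deepest, and MIR6236 alone held 6.01% to 79.7% of a library's FPKM. Read steps could be recovered for GSDMD, whose levels rest on 122 to 416 reads a library. CD276 RNA did not follow all labels. It was 10.9 ± 3.37 scaled FPKM (SD, n = 3) in sorted libraries labelled sh-B7-H3 (1) and 24.8 ± 1.30 (n = 3) in those labelled sh-B7-H3 (2), against 23.8 ± 8.97 (n = 3) in sorted sh-NC, and 21.5 ± 3.36 against 22.5 ± 1.52 in bulk (n = 3 each), so groups are named by their labels. One library, sorted sh-B7-H3 (2) replicate 1, stood apart. The summed level of 10 leukocyte markers was 388 scaled FPKM there, 15.03 to 22.8 in the other 8 sorted libraries and 377 to 713 in bulk tumors. For 8 macrophage markers these sums were 782, 36.2 to 98.1 and 871 to 1552. IL1B was at 77.6 scaled FPKM in it and at most 1.18 in the other sorted libraries. For the 9 genes, results that rest on this library are given with and without it. The 7 epithelial and renal tumor markers were detected in every library and summed to 787 to 1874. These sums were higher with the hairpins against B7-H3. In sorted cells they were 897 to 1082 with sh-NC, 1507 to 1704 with sh-B7-H3 (1) and 1721 to 1874 with sh-B7-H3 (2). In bulk tumors they were 787 to 897 with sh-NC and 1045 to 1388 with sh-B7-H3 (1). Not every marker rose. KRT18, KRT19 and EPCAM were above every sh-NC library of the same material, and KRT8 was so in sorted cells only. CDH1 and PAX8 were not higher. In sorted cells CDH1 was at 210 to 357 with sh-NC and at 166 to 194 with sh-B7-H3 (2), below every control, and PAX8 overlapped sh-NC.

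TNFSF10, the death ligand, and RIPK3, the necroptosis kinase, were the genes of the 9 that were higher under both hairpins in sorted cells, each by several fold. AIM2 was also higher in sorted sh-B7-H3 (1) cells. The abundant members, CASP1, CASP4, CASP8 and MLKL, did not pass the test in sorted cells, and the same held for FAS and GSDMD. Under sh-B7-H3 (1), 3 of the 9 genes rose, against 9.03% of all 11163 genes tested that rose at a limma adjusted p below 0.05. Under sh-B7-H3 (2), 2 of 9 rose, against 11.7% of 11243, and with both hairpins as 1 group of 6, 2 of 9 rose, against 12.6% of 11424. None of the 9 fell in these comparisons. The median log2 difference of the 9 genes with both hairpins was 0.24, where that of all genes tested was 0.01. All 9 passed the filter on low values, but TNFSF10 did so only through sh-B7-H3 libraries.

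**Figure D1:**
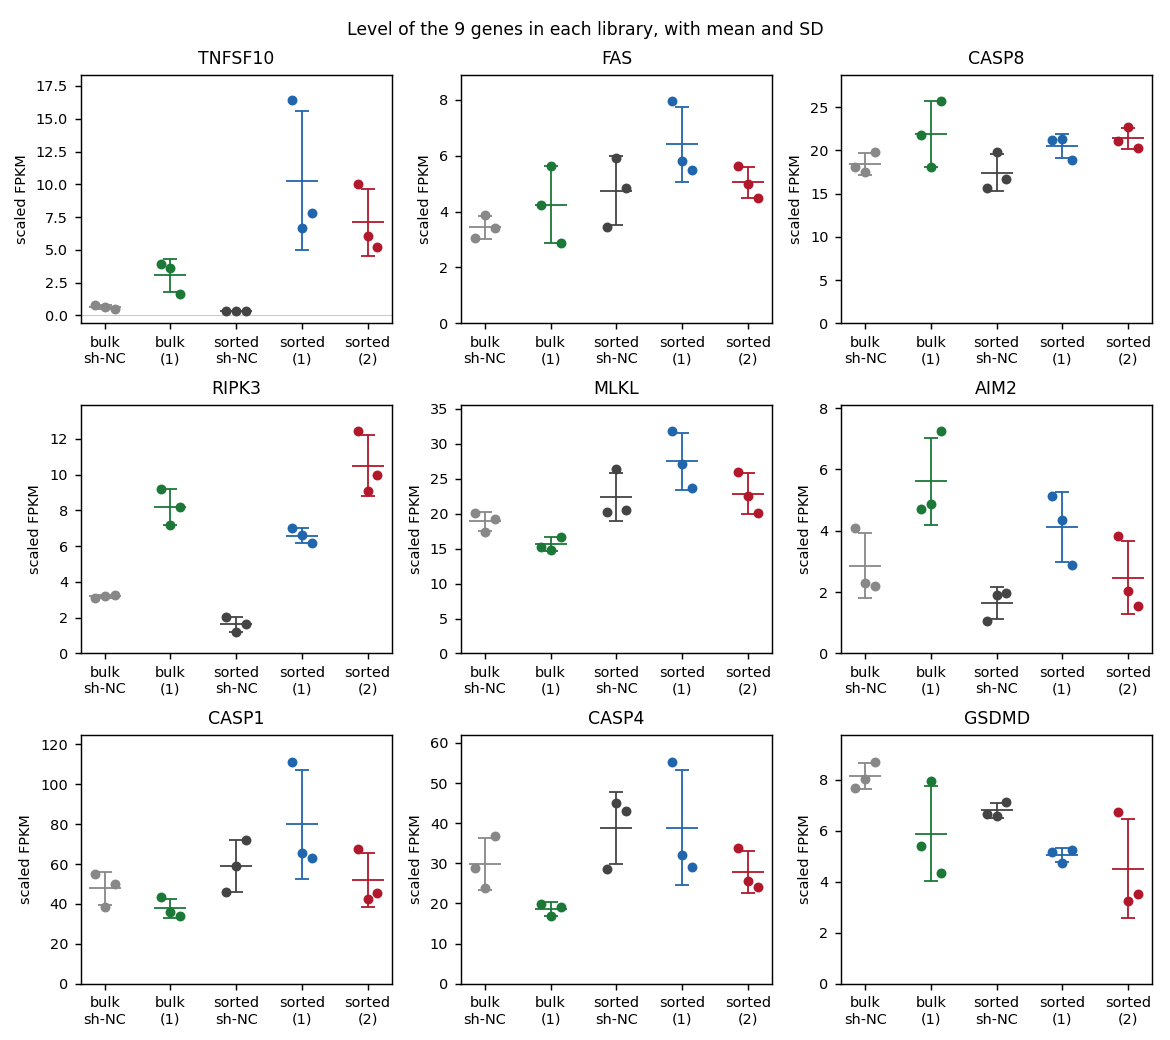
Scaled FPKM of the 9 genes in each of the 15 libraries (points) with the mean and SD of each group of 3, on a linear axis for each gene, where (1) and (2) are the hairpins against B7-H3. TNFSF10 lay between 5.19 and 16.4 in the 6 sorted sh-B7-H3 libraries and between 0.32 and 0.37 in sorted sh-NC, while CASP8 stayed between 15.7 and 25.7 in all libraries.

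TNFSF10 was the least abundant of the 9 genes in sorted sh-NC cells, at 0.37, 0.32 and 0.34 scaled FPKM. It was at 16.4, 6.67 and 7.78 in sorted sh-B7-H3 (1) cells and at 10.03, 6.05 and 5.19 in sorted sh-B7-H3 (2) cells. All 6 sh-B7-H3 libraries were far above all 3 controls, with the first replicate highest under either hairpin. The ratio of the group means was 30.1 for sh-B7-H3 (1) and 20.8 for sh-B7-H3 (2). On the log2(scaled FPKM + 1) scale used for the test, which understates the change of a gene this low, the differences were 2.97 (SE 0.28, limma adjusted p = 0.000299) and 2.55 (SE 0.21, limma adjusted p = 0.000177). With both hairpins together the log2 difference was 2.76 (SE 0.28, limma adjusted p = 5.09e-05), and 2.71 (SE 0.29, limma adjusted p = 0.000151) without the library that stood apart. Because its sh-NC values were under the filter of 1 scaled FPKM, TNFSF10 could enter the test only if the sh-B7-H3 libraries were higher. With no filter it still rose under either hairpin, at limma adjusted p = 0.00397 for the first and 0.00281 for the second.

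The receptor FAS, which passes a death signal to CASP8, was at 3.46, 5.93 and 4.83 scaled FPKM in sorted sh-NC cells. It was at 7.96, 5.81 and 5.48 under sh-B7-H3 (1) and at 5.63, 5.004 and 4.50 under sh-B7-H3 (2), so that both sh-B7-H3 groups overlapped the controls. The log2 difference was 0.38 for sh-B7-H3 (1) (95% interval -0.09 to 0.84, limma adjusted p = 0.306). It was 0.09 with the other hairpin (95% interval -0.33 to 0.51, limma adjusted p = 0.774). CASP8, the initiator caspase of the death receptors, was at 17.4 ± 2.14 scaled FPKM in sorted sh-NC, 20.5 ± 1.39 under sh-B7-H3 (1) and 21.4 ± 1.25 under sh-B7-H3 (2) (SD, n = 3 each). Its log2 difference with both hairpins was 0.25 (SE 0.10, limma adjusted p = 0.0971), and 1 sh-NC library lay among the 6 sh-B7-H3 libraries.

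RIPK3 was at 2.06, 1.22 and 1.63 scaled FPKM in sorted sh-NC cells. It was at 6.99, 6.61 and 6.15 in sorted sh-B7-H3 (1) cells and at 12.4, 9.09 and 9.9999 in sorted sh-B7-H3 (2) cells. The 3 groups were fully apart, in the order sh-NC, hairpin (1), hairpin (2) from low to high. Log2 differences from sh-NC were 1.54 (SE 0.15, limma adjusted p = 0.000323) and 2.13 (SE 0.17, limma adjusted p = 0.000152). RIPK3 rose under each hairpin with any library left out, at limma adjusted p between 0.000179 and 0.00325. Its substrate MLKL, the executioner of necroptosis, was at 20.3, 26.3 and 20.5 scaled FPKM with sh-NC, at 31.8, 27.0 and 23.7 with sh-B7-H3 (1) and at 26.0, 22.5 and 20.2 with sh-B7-H3 (2). These groups overlapped, and the log2 difference with both hairpins was 0.16 (95% interval -0.16 to 0.48, limma adjusted p = 0.491). MLKL thus stayed several times more abundant than RIPK3 in sh-NC cells, and the kinase, not its substrate, passed the test.

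AIM2, the DNA sensor, was at 1.06, 1.91 and 1.96 scaled FPKM in sorted sh-NC cells and at 5.15, 4.34 and 2.90 in sorted sh-B7-H3 (1) cells. The groups were apart and the log2 difference was 0.95 (SE 0.21, limma adjusted p = 0.0213). AIM2 was not called in that comparison without sh-B7-H3 (1) replicate 1 (limma adjusted p = 0.0934) or replicate 2 (limma adjusted p = 0.0836). It was also lost with quantile normalization (limma adjusted p = 0.0507), with no filter (0.0622) and with the replicate number as a block (0.0992). In sorted sh-B7-H3 (2) cells it was at 3.83, 2.04 and 1.55, which overlaps sh-NC, and the log2 difference was 0.36 (SE 0.26, limma adjusted p = 0.396), or 0.09 without the library that stood apart. With both hairpins together AIM2 was called only when sh-B7-H3 (2) replicate 3 was left out, of the 9 libraries left out in turn.

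The inflammatory caspases were the most abundant members. CASP1, which matures interleukin-1β and cuts GSDMD, was at 45.7, 59.2 and 71.8 scaled FPKM with sh-NC, at 111, 65.5 and 62.9 with sh-B7-H3 (1) and at 67.5, 42.7 and 45.7 with sh-B7-H3 (2). All groups overlapped, and 1 library, sh-B7-H3 (1) replicate 1, was well above the rest. CASP4, the sensor of cytosolic lipopolysaccharide, had means of 38.9 ± 8.98 with sh-NC, 38.9 ± 14.4 with sh-B7-H3 (1) and 27.8 ± 5.28 with sh-B7-H3 (2) (SD, n = 3 each). Log2 differences with both hairpins were 0.11 for CASP1 (95% interval -0.48 to 0.71, limma adjusted p = 0.821) and -0.24 for CASP4 (95% interval -0.78 to 0.29, limma adjusted p = 0.536). CASP4 was called under sh-B7-H3 (2) only when sh-NC replicate 1, its lowest control, was left out. In that fit 3614 of all 11139 genes were called in either direction, against 2150 of 11243 with all libraries.

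GSDMD, the pore former, had the lower values in sh-B7-H3 cells. It was at 6.67, 6.59 and 7.13 scaled FPKM in sorted sh-NC cells and at 5.18, 4.75 and 5.26 in sorted sh-B7-H3 (1) cells, below every control library. In sorted sh-B7-H3 (2) cells it was at 3.23 and 3.53 in replicates 2 and 3 and at 6.74 in replicate 1, the library with the high leukocyte markers. The log2 difference with both hairpins was -0.46 (SE 0.18, limma adjusted p = 0.094) with all libraries and -0.55 (SE 0.15, limma adjusted p = 0.0331) without that library. For sh-B7-H3 (2) alone it was -0.56 (SE 0.23, limma adjusted p = 0.138) with all libraries and -0.83 (SE 0.13, limma adjusted p = 0.00914) without it. GSDMD was therefore called lower only when that library was left out of these comparisons or, for sh-B7-H3 (1), under quantile normalization (log2 difference -0.43, limma adjusted p = 0.0456). The part that leukocyte RNA has in the GSDMD value of that library was not tested.

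Some markers of host cells differed with the hairpins in sorted cells, and others did not. Leaving out the library that stood apart, the sums ran from 15.03 to 22.8 scaled FPKM for leukocyte and from 1.26 to 2.18 for dendritic markers, with all groups overlapping. T cell markers, 7 of 8 in the table, summed to 0.45 to 0.78 scaled FPKM in sorted sh-NC, 1.19 to 1.54 in sorted sh-B7-H3 (1) and 1.70 to 21.7 in sorted sh-B7-H3 (2). In sh-B7-H3 (2) replicates 2 and 3 these sums were 2.03 and 1.70. LCK made up most of the T cell sums outside the library that stood apart. It was at 0.38 to 0.72 in sorted sh-NC, 0.89 to 1.08 in sorted sh-B7-H3 (1) and 1.79 and 1.30 in sh-B7-H3 (2) replicates 2 and 3. CD3E and all 6 cytotoxic markers were at 0 in the 3 sorted sh-NC libraries, and the cytotoxic sum reached 0.08 to 0.28 in sorted sh-B7-H3 (1) and 0.13 to 17.7 in sorted sh-B7-H3 (2). Without the library that stood apart, the cytotoxic sums of sorted sh-B7-H3 (2) were 0.34 and 0.13. Macrophage markers summed to 36.2 to 50.1 in sorted sh-NC and 71.3 to 98.1 in sorted sh-B7-H3 (1). CD68 made up most of this, at 24.97 to 33.3 and 55.7 to 83.05, and CSF1R was at 0.57 to 1.30 and 4.76 to 5.21, while C1QA, C1QB, C1QC, MRC1, ADGRE1 and LYZ2 overlapped between these groups. In sorted sh-B7-H3 (2) replicates 2 and 3 the macrophage sums were 73.6 and 62.9. CD68 and CSF1R were above every sorted sh-NC library there, but C1QA, C1QB and LYZ2 were below every one. Fibroblast sums in sorted sh-B7-H3 (2) replicates 2 and 3 were 113.8 and 114.4, against 31.2 to 77.5 in sorted sh-NC. Endothelial sums there were 1.70 and 1.29 against 0.54 to 0.70, and neutrophil sums 2.24 and 1.76 against 0.12 to 0.98. With sh-B7-H3 (1) the fibroblast, endothelial and neutrophil sums overlapped sh-NC. With all libraries kept, COL1A1, COL1A2 and COL3A1 were called higher under sh-B7-H3 (2). The part of these host markers in the member differences was not tested.

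**Figure D2:**
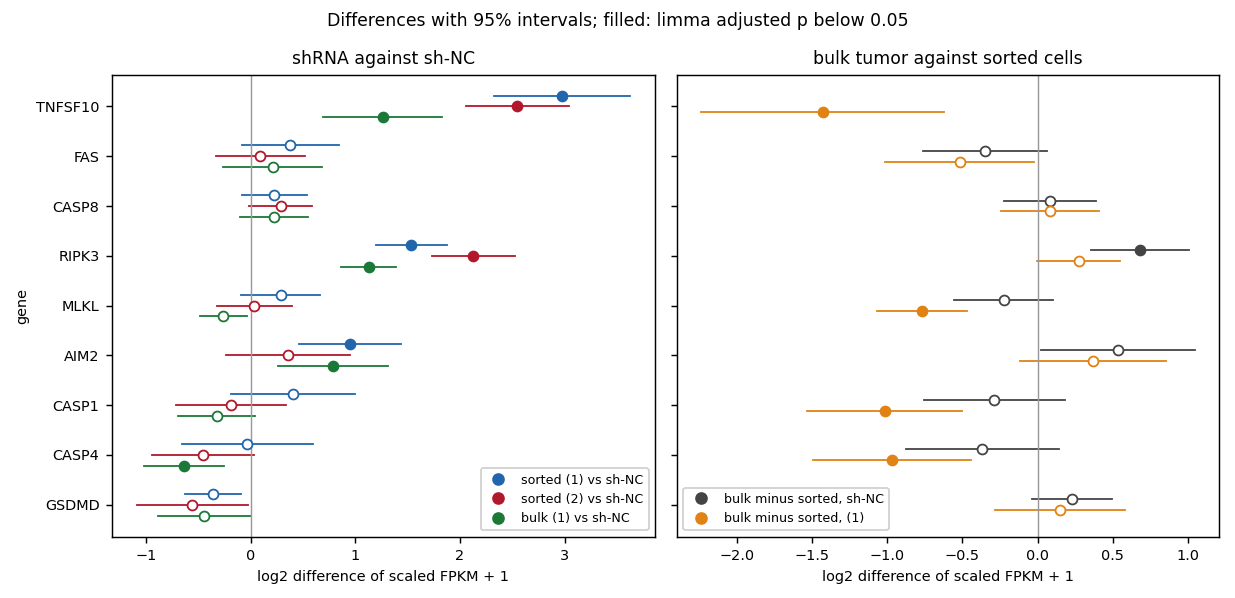
Log2 differences of the 9 genes with 95% intervals from limma, with the hairpins against sh-NC on the left and bulk tumors minus sorted cells on the right; filled points have an adjusted p below 0.05. TNFSF10 and RIPK3 lie to the right of 0 in all 3 hairpin comparisons, from 1.13 to 2.97, and TNFSF10 has no point for bulk minus sorted sh-NC, where it was below the filter.

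Set directly against each other, the hairpins differed in RIPK3, which was lower with sh-B7-H3 (1) than with sh-B7-H3 (2) by a log2 difference of -0.59 (SE 0.12, limma adjusted p = 0.046). This was 1 of the 9 genes, where 1.64% of all 11239 genes were called lower. The call was kept without the library that stood apart (log2 difference -0.48, limma adjusted p = 0.0362), where AIM2 (0.86, limma adjusted p = 0.0349) and GSDMD (0.47, limma adjusted p = 0.0364) were called as well. In that fit 890 of all 11092 genes were called in either direction, against 382 of 11239 with all libraries. The RIPK3 call was lost when any other of the 6 libraries was left out, at limma adjusted p from 0.0858 to 0.158. Same-numbered libraries of these groups deviated together, though the labels do not pair them and a pairing is not established. With the replicate number as a block 4 of the 9 genes were called higher with sh-B7-H3 (1), against 9.03% of all genes, and RIPK3 was the 1 of 9 called lower, against 7.55%. With the block, log2 differences were 0.59 for CASP1 (SE 0.07, limma adjusted p = 0.0173), 0.43 for CASP4 (SE 0.10, limma adjusted p = 0.0481), 0.59 for AIM2 (SE 0.11, limma adjusted p = 0.0339) and 0.25 for MLKL (SE 0.05, limma adjusted p = 0.0392). TNFSF10 did not pass with or without the block (log2 difference 0.43, 95% interval -0.34 to 1.19 and limma adjusted p = 0.489 without it).

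In bulk tumors TNFSF10, RIPK3 and AIM2 were higher and CASP4 was lower with sh-B7-H3 (1), so that 3 of the 9 genes rose, against 12.8% of all 11800 genes tested, and 1 fell, against 8.52%. In whole tumors, fewer cells of a type and less RNA per cell cannot be told apart. TNFSF10 was at 0.77, 0.62 and 0.52 scaled FPKM with sh-NC and at 3.92, 3.63 and 1.63 with sh-B7-H3 (1), a log2 difference of 1.26 (SE 0.24, limma adjusted p = 0.0155). Its bulk sh-NC values were all under the filter too, so it was tested only because it was higher with sh-B7-H3 (1), and with no filter the limma adjusted p was 0.0371. RIPK3 was at 3.11, 3.19 and 3.29 against 9.21, 7.18 and 8.20, a log2 difference of 1.13 (SE 0.11, limma adjusted p = 0.00267). AIM2 was at 4.08, 2.30 and 2.21 against 4.73, 4.86 and 7.24, a log2 difference of 0.79 (SE 0.22, limma adjusted p = 0.0472). Every sh-B7-H3 (1) tumor was above every control tumor for these 3 genes, by a wide margin for RIPK3 and a narrow one for AIM2.

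CASP4 in bulk tumors was at 28.8, 23.8 and 36.8 scaled FPKM with sh-NC and at 19.97, 16.8 and 19.1 with sh-B7-H3 (1). Every sh-B7-H3 (1) tumor was below every control tumor, and the log2 difference was -0.63 (SE 0.16, limma adjusted p = 0.0352). MLKL was also below in every sh-B7-H3 (1) tumor, at 15.2, 14.9 and 16.7 against 20.05, 17.4 and 19.2, but did not pass the test (log2 difference -0.26, SE 0.09, limma adjusted p = 0.0883). CASP1 and GSDMD had log2 differences of -0.32 (limma adjusted p = 0.169) and -0.44 (limma adjusted p = 0.128), and GSDMD was called without sh-B7-H3 (1) replicate 2 (log2 difference -0.65, limma adjusted p = 0.0111). In that fit 3793 of all 11490 genes were called in either direction, against 2520 of 11800 with all libraries. FAS and CASP8 had log2 differences of 0.21 (limma adjusted p = 0.465) and 0.22 (limma adjusted p = 0.259), and their groups overlapped.

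Only RIPK3 was called in bulk tumors with every library left out in turn (limma adjusted p from 0.00145 to 0.0155). TNFSF10 stayed past the threshold without sh-NC replicate 1 (limma adjusted p = 0.0428) and not without sh-NC replicate 2 (0.0536) or 3 (0.0672), and with 2 sh-B7-H3 libraries left it no longer met the filter. The AIM2 call was also lost in 5 of the 6 other alternatives, all but the pseudocount of 0.1 (limma adjusted p from 0.0518 to 0.0962 where lost), and the CASP4 call in 3 of 6, on FPKM as deposited (0.347), with no filter (0.064) and with all groups in 1 fit (0.0763). With libraries left out in turn, AIM2 was lost without any library but sh-NC replicate 1 or sh-B7-H3 (1) replicate 2, and CASP4 was lost without any but sh-NC replicate 2 or sh-B7-H3 (1) replicate 2, with p from 0.0321 to 0.153 and from 0.0326 to 0.105 for limma's adjusted values. Host markers differed between these tumors: T cell markers summed to 2.27 to 2.72 scaled FPKM with sh-NC and 6.23 to 19.5 with sh-B7-H3 (1), fibroblast markers (6) to 81.1 to 156 and 265 to 635, and neutrophil markers (5) to 5.30 to 10.8 and 1.82 to 3.66. The lower neutrophil sums came from S100A8 and S100A9, which were below every control tumor with sh-B7-H3 (1). LY6G and CXCR2 overlapped, as did CSF3R, at 0.64 to 1.00 with sh-NC and 0.74 to 1.61 with sh-B7-H3 (1). The part of the host markers in the differences of the 9 genes was not tested.

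Bulk tumors held far more host RNA than sorted cells, and most members tested were not called higher there. With sh-NC, RIPK3 was the 1 of 8 members tested that was higher in bulk tumors, against 10.4% of 11418 genes, with a log2 difference of 0.68 (SE 0.14, limma adjusted p = 0.0174). That call was lost on FPKM as deposited (limma adjusted p = 0.315) and with quantile normalization (limma adjusted p = 0.0611). It was also lost without any bulk library or without sorted sh-NC replicate 2, at limma adjusted p from 0.0721 to 0.131. Without sorted sh-NC replicate 1, CASP4 (log2 difference -0.57, limma adjusted p = 0.0404) and FAS (-0.52, limma adjusted p = 0.0227) were called lower in bulk tumors. In that fit 4436 of all 11327 genes were called in either direction. AIM2 (log2 difference 0.53, limma adjusted p = 0.136) and GSDMD (0.23, limma adjusted p = 0.207) were above in every bulk sh-NC tumor but did not pass. TNFSF10, below the filter, was also above, at 0.52 to 0.77 against 0.32 to 0.37 scaled FPKM. MLKL was below in every bulk sh-NC tumor and did not pass (-0.22, limma adjusted p = 0.309). With sh-B7-H3 (1), 4 of the 9 genes were lower in bulk tumors, against 17.1% of 11677 genes. These were CASP1 (log2 difference -1.02, SE 0.22, limma adjusted p = 0.012), CASP4 (-0.97, SE 0.23, limma adjusted p = 0.015), MLKL (-0.77, SE 0.13, limma adjusted p = 0.00497) and TNFSF10 (-1.43, SE 0.35, limma adjusted p = 0.017). For each of the 4, all bulk libraries lay below all sorted ones, and each call was kept in all 12 alternative analyses. FAS, RIPK3 and AIM2 had log2 differences of -0.52 (limma adjusted p = 0.089), 0.27 (limma adjusted p = 0.101) and 0.37 (limma adjusted p = 0.189).

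Whether the effect of sh-B7-H3 (1) differed between sorted cells and bulk tumors was tested as an interaction. None of the 9 genes passed, where 0.464% of 12062 genes did. An unadjusted limma p under 0.05 was found for 4 of the 9 (TNFSF10, MLKL, CASP1 and RIPK3) and for 14.6% of all genes. TNFSF10 had the largest difference of the 9, a log2 effect larger by 1.72 in sorted cells (SE 0.41, limma adjusted p = 0.106), and it passed on FPKM as deposited (log2 difference 1.93, limma adjusted p = 0.00762). By size, CASP1 (0.73, SE 0.33, limma adjusted p = 0.339), CASP4 (0.60, SE 0.35, limma adjusted p = 0.418), MLKL (0.55, SE 0.19, limma adjusted p = 0.261) and RIPK3 (0.41, SE 0.18, limma adjusted p = 0.337) followed. The smaller TNFSF10 effect in bulk tumors was therefore not shown to differ.

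The other genes of these pathways were counted from fixed lists in sorted cells with both hairpins. Over all genes 12.6% rose and 7.92% fell in this comparison, and each list count is to be read against these shares. Some genes called here were not called with each hairpin tested alone. IL1A and IFNGR2 were called with sh-B7-H3 (1) only. CASP14 was called with sh-B7-H3 (1) and was not tested with sh-B7-H3 (2), where only 2 libraries met the filter. Its values there, 0.85 to 1.55 scaled FPKM, were above those with sh-NC, 0.08 to 0.22. CASP6, PMAIP1, CYLD, TNFAIP3, BIRC3, TNFRSF21, STAT2 and IRF9 were called with sh-B7-H3 (2) only, and IRF2 and JAK1 with neither. Like TNFSF10, CASP14, IL1A, NAIP5 and CIITA were below 1 scaled FPKM in all sorted sh-NC libraries and entered the test only through sh-B7-H3 libraries. Of 5 other caspases counted, 1 rose and 1 fell. CASP14, a caspase of skin differentiation, rose by 1.14 on the log2 scale (SE 0.19, limma adjusted p = 0.00181, or 0.00548 with no filter), while CASP6 was lower by a log2 difference of -0.41 (SE 0.12, limma adjusted p = 0.0363). The mitochondrial initiator CASP9 had a log2 difference of -0.33 and did not pass (limma adjusted p = 0.138).

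Of 21 inflammasome and pyroptosis genes, 8 were tested, 3 rose and none fell. They were IL1A, the cytokine interleukin-1α (log2 difference 1.52, SE 0.39, limma adjusted p = 0.0196, and not called with no filter at 0.0502), and the flagellin and secretion-system sensors NAIP5 (1.06, SE 0.13, limma adjusted p = 0.000199, or 0.000642 with no filter) and NAIP2 (0.66, SE 0.10, limma adjusted p = 0.0012). IL1A was at 6.87 scaled FPKM in the library that stood apart and at 1.27 and 1.11 in sh-B7-H3 (2) replicates 2 and 3. With sh-B7-H3 (1) it was at 1.37 to 4.38, and the IL1A test with both hairpins is not given without that library. IL18, a substrate of CASP1, had a log2 difference of -0.05 (limma adjusted p = 0.903). The sensor NLRP3, the cytokine IL1B and the adaptor PYCARD, which links sensors to CASP1, were below the filter in sorted cells. PYCARD was at 0.04 to 0.17 scaled FPKM in the other 8 sorted libraries, at 1.84 in the library that stood apart and at 1.32 to 3.20 in bulk tumors, where it was higher than in sorted cells with sh-NC (log2 difference 1.37, SE 0.15, limma adjusted p = 0.000619). Since its sorted sh-NC values were all under the filter, PYCARD could enter that test only if bulk tumors were higher. In all sorted libraries but that one, CASP1 was thus at 42.7 scaled FPKM or more and its adaptor below 1.

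Of 15 genes of necroptosis and the death-inducing complex, 4 rose and none fell with both hairpins together. With sh-B7-H3 (1) alone, ZBP1 was the only gene of this list called. ZBP1, a nucleic acid sensor that activates RIPK3, rose by 2.13 on the log2 scale (SE 0.22, limma adjusted p = 6.11e-05), from 20.7, 22.2 and 24.2 scaled FPKM with sh-NC to 76.1 to 169 in the 6 sh-B7-H3 libraries. TNFAIP3 (1.33, SE 0.37, limma adjusted p = 0.0275) and BIRC3 (0.56, SE 0.13, limma adjusted p = 0.0134), both ubiquitin-editing regulators of TNF signaling, also rose, as did the deubiquitinase CYLD. TNFAIP3 was lower with sh-B7-H3 (1) than with the other hairpin (log2 difference -1.25, limma adjusted p = 0.00821). The core partners of CASP8 and RIPK3 did not pass, with log2 differences of 0.03 for RIPK1 (limma adjusted p = 0.877), 0.04 for FADD (limma adjusted p = 0.87) and -0.01 for CFLAR (limma adjusted p = 0.974).

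Of 18 death receptors and ligands, 11 were tested, 1 rose and 1 fell. TNFRSF21 (DR6) was higher (log2 difference 1.04, SE 0.32, limma adjusted p = 0.0412), less so with sh-B7-H3 (1) than with the other hairpin (-1.03, limma adjusted p = 0.0262), and it was not called with sh-B7-H3 (1) alone. EDA2R was lower (-0.90, SE 0.14, limma adjusted p = 0.00095). TNFRSF10B, a receptor of TNFSF10, had a log2 difference of -0.14 (limma adjusted p = 0.555) and the TNF receptor TNFRSF1A one of 0.25 (limma adjusted p = 0.127). With both hairpins together no change of TNFRSF10B was thus detected. It was at 7.12 to 8.01 scaled FPKM with sh-B7-H3 (1), below every sh-NC library (8.61 to 10.7), and at 8.16 to 10.98 with sh-B7-H3 (2). TNFRSF22 (0.15, limma adjusted p = 0.729) and TNFRSF23 (0.40, limma adjusted p = 0.319) did not pass. Both were called lower with sh-B7-H3 (1) than with the other hairpin, as were 1.64% of all genes. Of 22 genes of the BCL2 family and the mitochondrial step, 18 were tested. BOK, a BAX-like member, rose (1.26, SE 0.24, limma adjusted p = 0.00417) and PMAIP1 (NOXA) fell by 0.56 on the log2 scale (SE 0.15, limma adjusted p = 0.0248).

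Of 12 interferon-γ regulators counted, 11 were tested, 8 rose and 1, JAK1, fell, with a median log2 difference of 0.59. IRF1, a transcription factor induced by interferon-γ, rose by 2.87 (SE 0.21, limma adjusted p = 6.16e-06), CIITA, the switch of MHC class II genes, by 2.37 (SE 0.20, limma adjusted p = 1.48e-05, or 0.000174 with no filter), and SOCS1, a feedback inhibitor of cytokine signaling, by 1.52 (SE 0.19, limma adjusted p = 0.000219). In bulk tumors with sh-B7-H3 (1), IRF1 was higher by a log2 difference of 1.38 (SE 0.29, limma adjusted p = 0.0193), while ZBP1 did not pass (0.69, limma adjusted p = 0.0666).

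**Figure D3:**
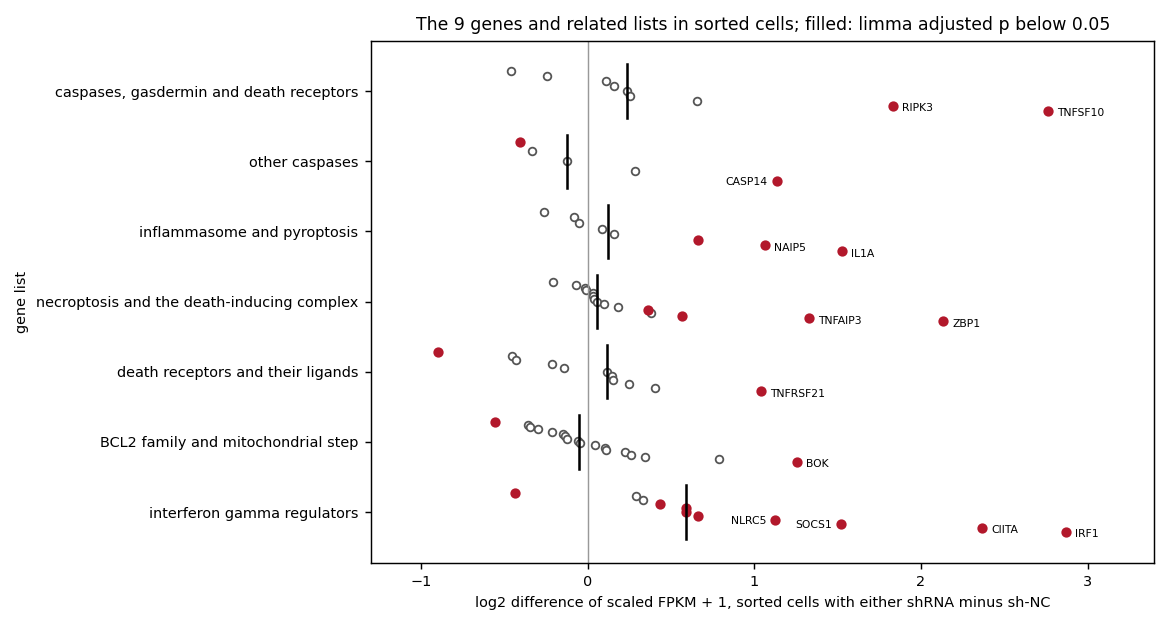
Log2 difference of each tested gene, sorted cells with either hairpin minus sorted sh-NC, for the 9 genes and 6 related lists; filled points have a limma adjusted p below 0.05 and black bars mark list medians. RIPK3 and TNFSF10 lie at 1.83 and 2.76, next to ZBP1 at 2.13 and IRF1 at 2.87, and the other 7 members lie between -0.46 and 0.65.

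Over the 15 libraries the 9 genes followed different patterns, described by Pearson's r of log2 values with no test, since libraries share groups and the group differences enter every r. CASP1 and CASP4 moved together (r = 0.88), and both moved with MLKL (r = 0.842 and 0.814). RIPK3 and TNFSF10 had r = 0.824 with each other, and r = 0.894 and 0.98 with IRF1. CASP4 had r = 0.024 with TNFSF10 and -0.435 with RIPK3.

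Among 12194 genes, those most like TNFSF10 were the interferon-induced GTPases GM12250 (r = 0.991) and TGTP2 (r = 0.989), and ZBP1 (r = 0.988). RIPK3 was most like SLC52A3 (r = 0.984), CADM4 (r = 0.981) and MGAT4A (r = 0.978), none of them in the lists above. CASP1 was most like CASP12 (r = 0.936), which lies next to CASP4 at chr9:5345430-5373032, then WSB1 (r = 0.917) and OSER1 (r = 0.916), and CASP4 was most like RHBDL2 (r = 0.982), RRAS2 (r = 0.951) and SERPINB6A (r = 0.932). MLKL was most like SERPINB6B (r = 0.923), NAMPT (r = 0.908) and HSD17B12 (r = 0.901), FAS like GSTZ1 (r = 0.885), PDIA3 (r = 0.863) and IL15RA (r = 0.86), and GSDMD like SUN2 (r = 0.934), TPST2 (r = 0.908) and SLC36A4 (r = 0.89). CASP8 with GOLGA5 (r = 0.878), NCBP3 (r = 0.863) and AATF (r = 0.853), and AIM2 with CTLA2A (r = 0.868), CYSLTR1 (r = 0.867) and SKP2 (r = 0.863), had the lowest leading values.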

How the data were processed

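RNA-seq libraries of bulk 105K tumors and sorted tumor cells were analysed from the table deposited by the authors, whose values are FPKM with 1 column for each of 15 libraries. The submitters' processing notes name mm10, and the aligner and counter are not given in the sources used here. The authors also deposited log2(FPKM + 1) values of 1000 genes, which matched the FPKM table within 8.91e-08 for the 999 genes found in both, and was used for that check only. Of 24917 entries, the 26 whose symbols read as dates were dropped.

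Each library was scaled by its median ratio (factors 0.65 to 1.18) to the geometric mean of 9872 genes that reached 1 FPKM in all libraries, and log2 was taken after adding a pseudocount of 1. A gene was tested where 3 libraries or more of the comparison reached 1 scaled FPKM, by limma (version 3.58.1, R 4.3.3; mean-variance trend, two-sided), with Benjamini-Hochberg adjustment over all genes tested and a threshold of 0.05. limma was tested on simulated data. Exact two-sided permutation tests of single genes cannot go below p = 0.1 with 3 libraries against 3, so separation of groups is given in words. Replicates correlated at r = 0.906 to 0.986 across 12194 genes, which are not independent. Sums, folds and figures were made with Python 3.11.15, numpy 2.4.6, pandas 2.3.3 and matplotlib 3.10.9.

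Same-numbered sorted libraries of the 2 hairpins against Cd276 deviated together (r = 0.209, 0.229 and 0.209, all above 0.1), but the labels do not say what a number marks. Libraries with different numbers reached larger values elsewhere, such as r = 0.544 for bulk sh-NC replicate 3 and bulk sh-B7-H3 (1) replicate 2. A pairing is therefore not established, and the replicate block was used as an alternative only. Named genes were the 9 members, Cd276, set genes of the pathway lists with up to 3 of the largest called differences per list, and the 3 genes most like each member. The members, lists and tests were chosen with earlier results of these data known. Alternatives used FPKM as deposited, quantile normalization, no filter, a pseudocount of 0.1, the replicate block, all groups in 1 fit, and each library left out in turn. Some genes of the pathway lists are not reported here and were left out of the list counts. The depth is known only relative between libraries.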

Additional observations from a re-analysis of the deposited data

Results flagged for a closer look

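Among the 6 sorted sh-B7-H3 libraries, 19 measures were screened for a library set off from the others by a gap above the 95% critical share of the range for 6 values: the 9 genes and 10 marker sums. Chance alone sets off about 5% of groups. For 7 of the 19 a library was set off, each time sorted sh-B7-H3 (2) replicate 1 with the highest value, in summed scaled FPKM 388 for leukocyte, 21.7 for T cell, 17.7 for cytotoxic, 782 for macrophage, 13.3 for dendritic, 10.8 for B cell and 17.3 for endothelial markers. None of the 9 genes was set off in this way. In this library GSDMD was at 6.74 scaled FPKM, against 3.23 to 5.26 in the other 5, and its place in the range of the 6 came short of the criterion.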

How the results depend on the processing

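The 9 genes were called 3 times under sorted sh-B7-H3 (1), 2 under sh-B7-H3 (2), 2 with both hairpins, 1 between the hairpins, 4 in bulk tumors, 1 and 4 for bulk against sorted cells with sh-NC and sh-B7-H3 (1), and 0 for the interaction. FPKM as deposited gave 4 with both hairpins (CASP8 and AIM2 added), 2 in bulk, 0 for bulk against sorted sh-NC and 1 for the interaction. Quantile normalization gave 0 between the hairpins and 0 for bulk against sorted sh-NC. No filter gave 0 between the hairpins, 2 in bulk and 2 for bulk against sorted sh-NC, and all groups in 1 fit gave 2 in bulk. With 1 library left out, counts ran from 1 to 3 for sh-B7-H3 (1), 1 to 3 for sh-B7-H3 (2), 2 to 3 with both, 0 to 3 between the hairpins, 1 to 4 in bulk, 0 to 3 for bulk against sorted sh-NC, 4 to 5 with sh-B7-H3 (1) and 0 for the interaction. TNFSF10 left the test whenever a sh-B7-H3 library was left out of a fit of 3 sh-B7-H3 against 3 sh-NC libraries, since only 2 libraries then met the filter.

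Log2 differences near 0 changed sign: CASP4 under sh-B7-H3 (1), 0.16 on FPKM as deposited and -0.31 to 0.14 with libraries left out; CASP1 under sh-B7-H3 (2), 0.044 on FPKM as deposited; FAS there, -0.054 with quantile normalization and -0.077 to 0.24 with libraries left out; MLKL there, -0.058 to 0.15; and CASP1 with both hairpins, -0.056 to 0.26. FPKM as deposited shifted the median log2 difference of all genes to 0.17, 0.21 and 0.20 in the sorted hairpin comparisons, -0.23 for bulk against sorted sh-B7-H3 (1) and 0.12 for the interaction, and RIPK3 and TNFSF10 remained above these shifts under either hairpin.

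With the replicate number as a block, 5 of the 9 genes were called between the hairpins, and 1864 of all genes in place of 382. In the other comparisons same-numbered libraries did not all deviate together, and the block left 2 genes for sh-B7-H3 (1) (AIM2 lost, limma adjusted p = 0.0992) and 3 in bulk (AIM2 lost, limma adjusted p = 0.0924, as under 4 other settings with all libraries kept). Over all genes the block gave 915 in place of 1497 for sh-B7-H3 (1), 1395 in place of 2150 for sh-B7-H3 (2), 1413 in place of 2520 in bulk and 24 in place of 56 for the interaction. FPKM as deposited gave 961 in bulk, 652 in place of 1924 for bulk against sorted sh-NC and 128 for the interaction, the fit of all groups 3246 for sh-B7-H3 (2) and 3203 for bulk against sorted sh-NC, no filter 137 between the hairpins, and a pseudocount of 0.1 gave 25 for the interaction. With 1 library left out, all-gene counts ran from 722 to 1948 for sh-B7-H3 (1), 962 to 3614 for sh-B7-H3 (2), 1414 to 2584 with both, 35 to 890 between the hairpins, 546 to 3793 in bulk, 139 to 4436 and 1674 to 3814 for bulk against sorted sh-NC and sh-B7-H3 (1), and 12 to 72 for the interaction. Of genes called with both hairpins, 61.4% were higher, 86.4% on FPKM as deposited and 47.5% with quantile normalization, and for bulk against sorted sh-B7-H3 (1) these shares were 55.2%, 22.8% and 45.7%. The cause of these changes was not tested. Read totals are not known, so the precision of low values such as TNFSF10 in sh-NC libraries cannot be given in reads.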
